A study of Homo sapiens with 12 samples.

Results

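Expression of 10 leukocyte integrin and adhesion genes, ITGA4, ITGB1, ITGB7, ITGAL, ITGB2, ICAM1, ICAM3, SELPLG, CD44 and ITGAE, was followed in OPM-1 cells, an established human multiple myeloma line. The 10 genes were taken by name from the 38478 genes of the expression table, as adhesion molecules of leukocytes that include reported targets of RUNX transcription factors. Poly(A) RNA was profiled after 48 h in DMSO (vehicle), in 0.1 μM lenalidomide (LEN), in 1 μM AI-10-104, or in both drugs at these doses (LEN + AI-10-104), with 3 replicates of each of the 4 conditions. Lenalidomide directs the lymphoid transcription factors IKZF1 and IKZF3 to the ubiquitin ligase subunit cereblon for degradation. AI-10-104, which the sample labels call RUNXi, keeps RUNX proteins from their partner CBFβ. The study asked how RUNX inhibition alters the transcriptional response to lenalidomide. The samples represent a single cell line grown without stroma, at a single dose of each drug and a single time point. The study describes the replicates as biological and as independent experiments.

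Integrins are heterodimers of an α and a β subunit that tie cells to matrix and to other cells, and a subunit reaches the surface only with a partner. In lymphocytes and plasma cells, α4 pairs with β1 to bind VCAM-1 and fibronectin, or with β7 to bind the gut addressin MAdCAM-1. The β7 subunit also pairs with αE to bind E-cadherin, whereas αL pairs with β2 to form LFA-1, the receptor for the ICAM family. PSGL-1, the product of SELPLG, is the ligand of P-selectin, and CD44 binds hyaluronan. In myeloma these molecules are known for holding plasma cells in the bone marrow, where contact with stroma can blunt the action of drugs.

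In the comparisons below, the β7 subunit gene was called and the genes of its α4 and αE partners were not, so the sequence upstream of each start site is shown. Upstream windows of 250 bases from RefSeq (GRCh38.p14) were matched for 7 of the 10 genes, in 10 entries. ITGAL, SELPLG and ITGB2 had no entry, so nothing is said of their upstream sequence. Only the bases that lie before every exon annotated there in GENCODE v44 are printed, 5′ to 3′ on the gene's strand, for ITGB7 (chr12:53207283-53207501, minus strand), ITGA4 (chr2:181457136-181457201, plus strand) and ITGAE (chr17:3801189-3801438, minus strand).
ITGB7: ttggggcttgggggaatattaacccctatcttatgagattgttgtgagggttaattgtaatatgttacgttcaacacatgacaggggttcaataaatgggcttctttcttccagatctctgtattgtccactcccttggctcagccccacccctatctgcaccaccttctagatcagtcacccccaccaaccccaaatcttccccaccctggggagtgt
ITGA4: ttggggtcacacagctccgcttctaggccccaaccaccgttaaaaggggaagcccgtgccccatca
ITGAE: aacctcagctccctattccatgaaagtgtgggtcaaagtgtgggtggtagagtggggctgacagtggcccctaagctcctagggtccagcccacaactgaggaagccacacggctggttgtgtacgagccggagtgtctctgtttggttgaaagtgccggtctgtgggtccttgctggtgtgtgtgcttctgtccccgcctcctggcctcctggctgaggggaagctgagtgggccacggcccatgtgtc
Matches to the RUNX motif TGTGGT or TGCGGT and to the Ikaros motif TGGGAA, sought on both strands, would stand in capitals, and none lies in these 3 stretches. In the full 250-base windows the RUNX motif was found in 0 of the 10 entries, against 16.3% of 35116 RefSeq promoters. The Ikaros motif was found in 1 entry, the third of ICAM3, against 20.8% of all promoters. ITGB5, an integrin gene outside the 10 that is taken up below, was scanned as well. Its second entry held 1 RUNX match, TGCGGT at position −158 counted from the end of the window. That window lies inside the gene as annotated in GENCODE v44. What a match does was not tested, and a missing match says only that these letters are not in the window.

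OPM-1 cells carried the plasma cell genes fixed as markers and hardly any read from other lineages. All 8 plasma cell markers (SDC1, TNFRSF17, IRF4, PRDM1, XBP1, CD38, MZB1 and SLAMF7) were expressed, at a summed 1239 to 1539 RPKM (reads scaled by gene length and by the sample's total reads) per sample. The summed level was 0.202 to 0.592 RPKM for 4 T cell markers, 0.0783 to 0.474 RPKM for 4 myeloid markers and at most 0.0381 RPKM for 4 stromal or epithelial markers. Of the plasma cell markers, SLAMF7 rose 1.61-fold with AI-10-104 against DMSO and was 30.0% lower in LEN + AI-10-104 than in AI-10-104, where XBP1 was also 21.6% lower (limma adjusted p = 0.000113, 0.0011 and 0.000609). Their part in the results below was not tested. Reads assigned to genes numbered 16352548 to 31386210 per sample, and the lowest number was in a LEN + AI-10-104 sample. Depth differed by condition, with 16352548 to 20419807 reads in LEN + AI-10-104 and 21297486 to 31386210 in DMSO. It was 19442512 to 30478783 in LEN and 22784874 to 29512562 in AI-10-104. The highest median depth of a condition was 1.56 times the lowest. In bulk RNA, fewer cells that express a gene and less RNA per cell cannot be told apart.

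ITGB7 was by far the most abundant of the 10 genes, with ITGB2 and ICAM1 at or near 0. Differences were tested with limma on log2(RPKM + 0.1) over the 11241 genes that averaged 0.5 RPKM or more. A gene was called at a Benjamini-Hochberg adjusted p of at most 0.05 with a log2 fold change of 0.32 or more in size. For the interaction, the adjusted p alone decided a call, with no fold threshold. Of the 10 genes, 8 passed the filter. ITGB7, ITGAL and SELPLG were called in at least 1 comparison, and ITGA4, ITGB1, ICAM3, CD44 and ITGAE in none. The share of all genes called in at least 1 comparison was not computed, so calls are set below beside the share in each comparison. With AI-10-104 against DMSO, 2 were lower (ITGAL and ITGB7) and 0 higher, where 1.09% of all genes tested were called lower and 0.685% higher. With LEN against DMSO none of the 8 was called, where 0.587% of all genes were called higher and 0.0623% lower. With LEN + AI-10-104 against DMSO, 1 was higher (SELPLG) and 1 lower (ITGAL), beside 2.3% and 0.641% of all genes.

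The same 2 genes, ITGAL and ITGB7, were lower in LEN + AI-10-104 than in LEN, and none was higher, beside 0.81% lower and 0.872% higher among all genes. Against AI-10-104 alone, LEN + AI-10-104 raised 1 gene (ITGB7) and lowered none, where 3.16% of all genes were called higher and 0.471% lower. The median log2 fold change over the 8 genes lay between −0.08 and 0.11 in the 5 pairwise comparisons, beside medians of −0.00 to 0.02 over all genes tested. The comparisons share samples, DMSO above all, so their values are given side by side and are not independent of each other. For the interaction, which asks whether LEN acted differently in the presence of AI-10-104, limma called 0 of 11241 genes (0.0%), with 1621 (14.4%) at an unadjusted p under 0.05. A second test, voom on the reads recovered from the RPKM values, called 3 genes, none of them among these 10.

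**Figure D1:**
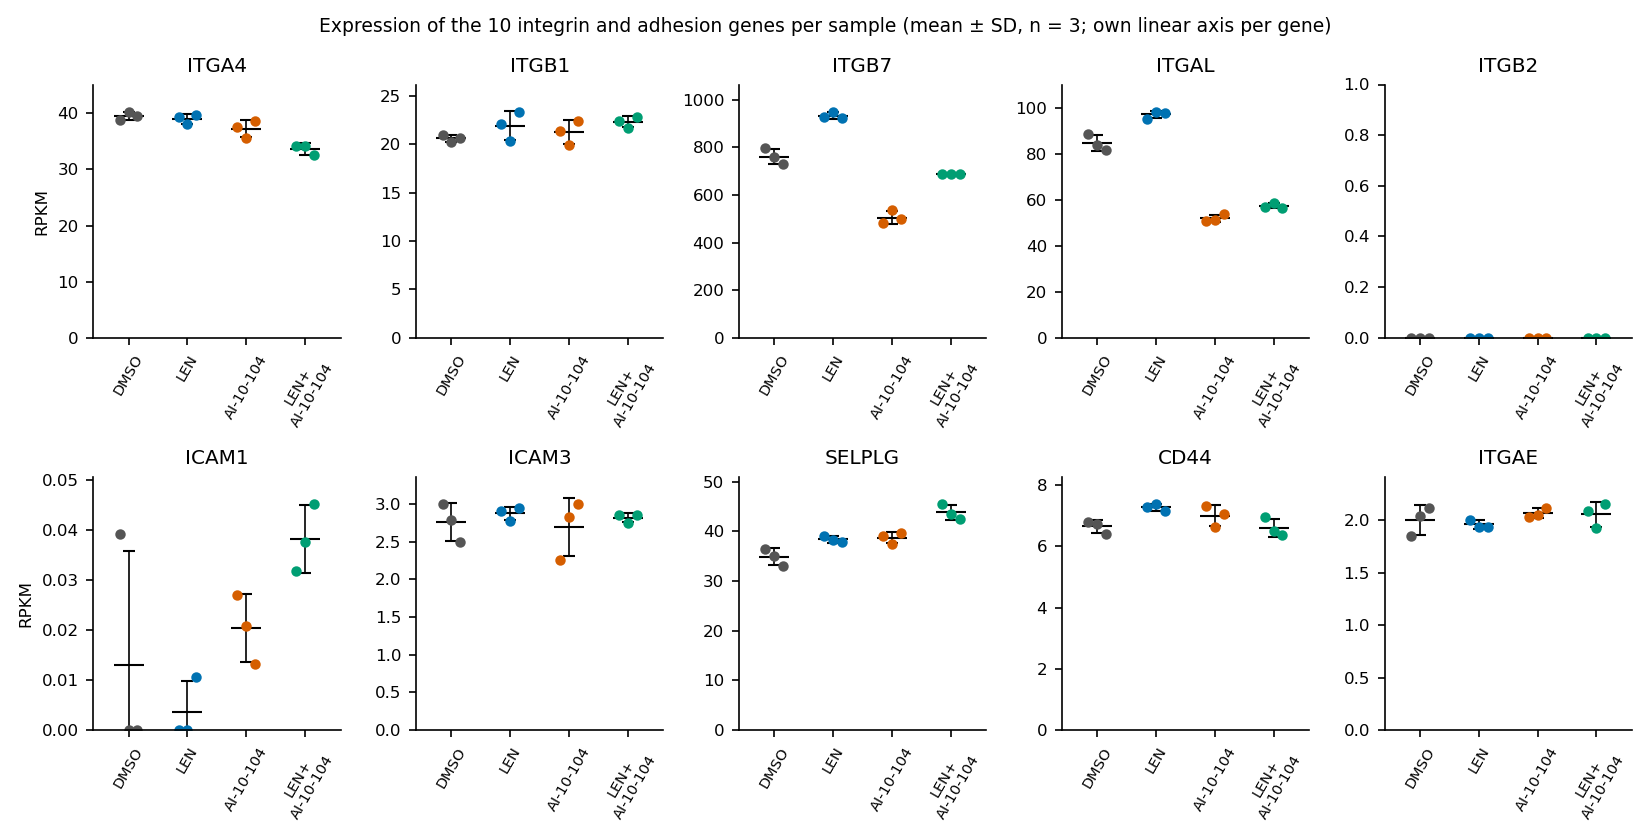
RPKM of each of the 10 genes (vertical axis, its own linear scale per gene) in each sample of the 4 conditions (horizontal axis), with bars for mean ± SD (n = 3). ITGB7 and ITGAL were lowest in AI-10-104 and highest in LEN, SELPLG was highest in LEN + AI-10-104, and ICAM1 never exceeded 4 reads in a sample.

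ITGB7 encodes the β7 subunit (GRCh38, chr12:53191323-53207282, minus strand). Its transcript ranked 52nd among all genes in DMSO, with 33266 to 87819 reads per sample. The DMSO replicates read 796, 758 and 732 RPKM, and the LEN replicates 926, 951 and 923 RPKM. AI-10-104 alone gave 482, 535 and 498 RPKM, and LEN + AI-10-104 gave 690, 689 and 689 RPKM. The 4 conditions thus formed 4 separate ranges in the order LEN, DMSO, LEN + AI-10-104, AI-10-104.

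AI-10-104 lowered ITGB7 by 33.7% (log2 fold change −0.59 ± 0.04 SE, limma adjusted p = 8.97e-06). Added to LEN, it lowered the gene by 26.1% (−0.44 ± 0.04, adjusted p = 0.000136 in limma). LEN on top of AI-10-104 raised ITGB7 1.37-fold (0.45 ± 0.04, limma adjusted p = 0.000197). In the absence of AI-10-104 the LEN difference was 0.29 ± 0.04 (limma adjusted p = 0.00513), which is under the fold threshold. Without DMSO replicate 1 it was 0.325 (adjusted p = 0.00705) and would be called.

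Neighbouring levels in this order were therefore not all separated by a call. LEN + AI-10-104 stood 9.48% below DMSO for ITGB7 (log2 −0.14, 95% confidence interval −0.24 to −0.05, limma adjusted p = 0.0553). The interaction for ITGB7 was 0.16 on the log2 scale (95% confidence interval 0.03 to 0.29, limma adjusted p = 0.304). Without AI-10-104 replicate 2, the highest of its group, it was 0.20 with an adjusted p of 0.0454. ZNF740 on the opposite strand shares 1881 exon bases with ITGB7 (42.3% of the exon bases of ITGB7 in GENCODE v44). The libraries were made with a directional kit, but whether reads were counted by strand is not given in the sources used here, and ZNF740 itself held 15669 reads over all samples against 648790 for ITGB7.

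ITGAL encodes αL, the α subunit of LFA-1 (chr16:30472658-30523567, plus strand). Its levels were 88.7, 84.1 and 82.0 RPKM in DMSO and 95.5, 98.6 and 98.0 RPKM in LEN. They were 50.8, 51.6 and 54.0 RPKM in AI-10-104 and 57.2, 58.8 and 56.6 RPKM in LEN + AI-10-104. Both conditions with AI-10-104 lay far below both conditions without it, and no pair of the 4 ranges overlapped.

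AI-10-104 lowered ITGAL by 38.6% against DMSO (log2 fold change −0.70 ± 0.04 SE, limma adjusted p = 6.19e-07). Against LEN, the combination was lower by 40.9% (−0.76 ± 0.04, limma adjusted p = 2.27e-07), and against DMSO by 32.2% (−0.56 ± 0.04, limma adjusted p = 3.57e-06). The LEN differences were small, at 0.20 ± 0.04 without AI-10-104 and 0.14 ± 0.04 with it (limma adjusted p = 0.0251 and 0.0248), both under the fold threshold. The interaction for ITGAL was −0.05 (95% confidence interval −0.17 to 0.06, limma adjusted p = 0.631). LEN on top of AI-10-104 thus gave 0.45 for ITGB7 and 0.14 for ITGAL on the log2 scale, and the difference between the genes was not tested.

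ITGB2, which encodes the β2 partner of αL, was listed at 0 reads in all 12 samples, against the 5026 to 15710 reads of ITGAL. A count of 0 allows up to 0.0285 to 0.0548 RPKM in a sample, taken as 3 reads. The protein-coding genes nearest to ITGB2 on either side were counted, PTTG1IP at 981 to 1826 reads and SLX9 at 324 to 656 reads. However, a few genes that every cell uses were also near 0 in this table, with 6 to 16 reads for TUBB and 1 to 6 for U2AF1, so the 0 is given as listed. A floor of this kind covers counting error only. ICAM1, a ligand of LFA-1, had 17 reads in all, with 4, 0 and 0 reads in the DMSO samples, 0, 0 and 1 under LEN, 2, 2 and 1 under AI-10-104, and 2, 2 and 3 with both drugs. Only 1 of these samples exceeded the 3-read floor, so no difference was detectable at this depth.

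ICAM3, another LFA-1 ligand carried by leukocytes, was low and level. It read 3.001, 2.79 and 2.50 RPKM under DMSO and 2.91, 2.78 and 2.94 RPKM under LEN. Under AI-10-104 it read 2.26, 2.83 and 3.004 RPKM, and with both drugs 2.86, 2.75 and 2.85 RPKM. All 4 ranges of ICAM3 overlapped, and its pairwise log2 differences lay between −0.04 and 0.07, each with an interval that reached about 0.21 to either side. An antisense RNA annotated on the other strand, ENSG00000274425, covers 75.4% of the ICAM3 exon bases, so reads of the pair could not be told apart if the counting did not use strand.

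ITGA4 encodes α4 (chr2:181457202-181538940, plus strand), which β1 and β7 share as a partner. ITGA4 read 38.8, 40.3 and 39.5 RPKM in DMSO and 39.3, 38.1 and 39.7 RPKM in LEN. It read 37.5, 35.6 and 38.6 RPKM in AI-10-104 and 34.2, 34.3 and 32.5 RPKM in LEN + AI-10-104. Only the combination stood below the other conditions in every sample.

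The combination differed from DMSO by −0.23 ± 0.04 (log2, limma adjusted p = 0.00332) for ITGA4, from LEN by −0.21 ± 0.04 (limma adjusted p = 0.00801) and from AI-10-104 by −0.15 ± 0.04 (limma adjusted p = 0.0258). All 3 fall short of the fold threshold. The single drugs gave −0.02 (95% confidence interval −0.10 to 0.06) for LEN and −0.09 (−0.17 to −0.01) for AI-10-104, with limma adjusted p of 0.935 and 0.201. ITGA4 exons share 2813 bases with CERKL on the opposite strand, which had 115 reads in all samples together against 84531 for ITGA4.

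ITGB1, the β1 subunit that completes VLA-4, was expressed at a similar level in the 4 conditions and called in no comparison. It read 21.0, 20.3 and 20.7 RPKM under DMSO, 22.1, 20.4 and 23.4 under LEN, 21.4, 19.9 and 22.4 under AI-10-104, and 22.4, 21.7 and 22.9 with both drugs. Its largest pairwise log2 difference was 0.11, for the combination against DMSO (95% confidence interval −0.00 to 0.23, limma adjusted p = 0.224). ITGAE, the αE partner of β7, was 1.85, 2.04 and 2.12 RPKM under DMSO, 2.00, 1.94 and 1.94 under LEN, 2.03, 2.05 and 2.12 under AI-10-104, and 2.09, 1.93 and 2.16 with both drugs. Ranges of ITGAE overlapped in every pair but LEN and AI-10-104, and its pairwise log2 differences lay between −0.03 and 0.06 (limma adjusted p from 0.641 to 0.951).

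Because RPKM is scaled by gene length, subunit levels can be set side by side within a sample, given the deposited lengths. These were 4087 bases for ITGB1 and 7662 for ITGA4, against 14561 and 10654 exon bases in GENCODE v44. Ratios between genes, and shares of a sum, therefore depend on the lengths used, whereas the change of a ratio between conditions does not. ITGB7 exceeded ITGA4 by a ratio of 19.3 ± 1.09 under DMSO, 23.9 ± 0.912 under LEN, 13.6 ± 1.24 under AI-10-104, and 20.5 ± 0.606 with both drugs (mean ± SD, n = 3). The ratio was lowest in every AI-10-104 sample and highest in every LEN sample, and the combination overlapped DMSO. ITGB1 stood below ITGA4 throughout, with ratios of 0.522 ± 0.0186 under DMSO, 0.562 ± 0.0272 under LEN, 0.570 ± 0.0105 under AI-10-104, and 0.665 ± 0.0358 with both drugs. For ITGB1, only the combination lay above the other 3 conditions in every sample. The ITGAL to ITGA4 ratio was 2.15 ± 0.119 under DMSO, 2.50 ± 0.0829 under LEN, 1.40 ± 0.0482 under AI-10-104, and 1.71 ± 0.0350 with both drugs. These ratios of transcript levels were not tested and do not measure the amount of any heterodimer at the surface.

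**Figure D2:**
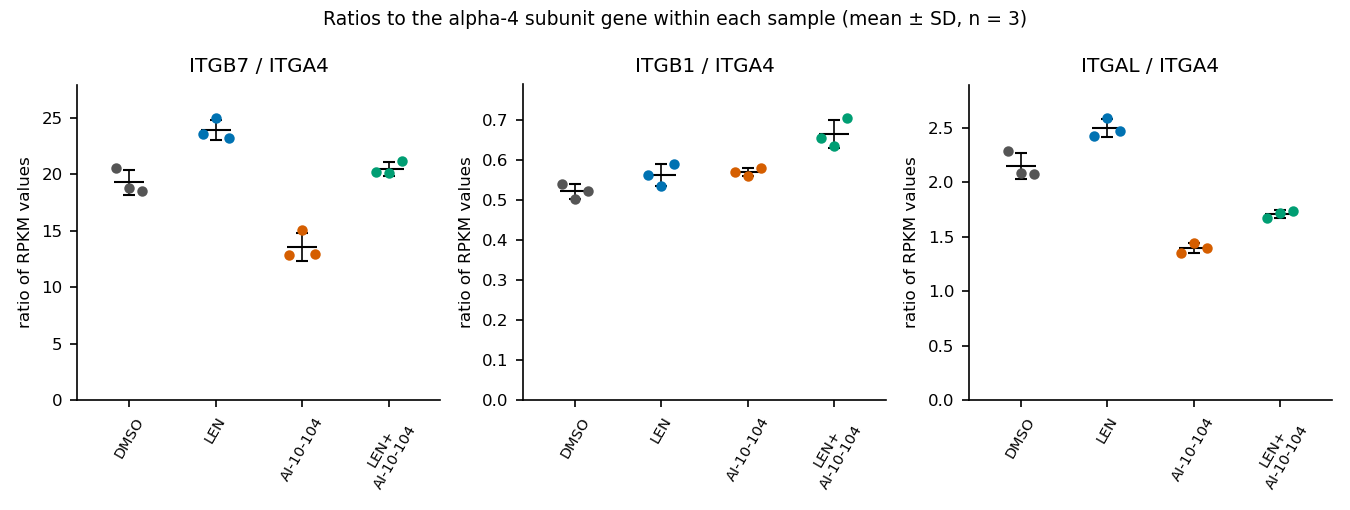
Ratios of RPKM values within each sample (vertical axes, linear from 0) for ITGB7, ITGB1 and ITGAL over ITGA4 in the 4 conditions (horizontal axis), with bars for mean ± SD (n = 3). ITGB7 over ITGA4 ranged from 12.8 in AI-10-104 to 25.0 in LEN, whereas ITGB1 over ITGA4 stayed between 0.503 and 0.704.

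SELPLG, which encodes PSGL-1 (chr12:108621895-108633894, minus strand), was the one of the 3 called genes with its highest level in the combination. It read 36.5, 35.0 and 33.1 RPKM in DMSO and 39.1, 38.2 and 37.8 RPKM in LEN. It read 39.1, 37.5 and 39.6 RPKM in AI-10-104 and 45.5, 43.4 and 42.5 RPKM in LEN + AI-10-104. Every sample with a drug exceeded every DMSO sample, the single drugs overlapped each other, and the combination was highest.

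SELPLG rose 1.26-fold in the combination against DMSO (log2 fold change 0.33 ± 0.04 SE, limma adjusted p = 0.000682), just past the fold threshold. It fell short of that threshold without DMSO replicate 3 (0.293), without LEN + AI-10-104 replicate 1 (0.302) and after median-ratio rescaling of the samples (0.301), with adjusted p of at most 0.00478 in each. The single-drug differences were 0.14 ± 0.04 for LEN and 0.15 ± 0.04 for AI-10-104 (limma adjusted p = 0.181 and 0.0599). The combination differed from LEN by 0.19 and from AI-10-104 by 0.18 on the log2 scale (limma adjusted p = 0.0253 and 0.0189), both under the fold threshold. The SELPLG interaction was 0.04 (95% confidence interval −0.09 to 0.17, limma adjusted p = 0.790).

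CD44, the hyaluronan receptor (chr11:35138882-35232402, plus strand), read 6.80, 6.74 and 6.42 RPKM in DMSO and 7.30, 7.39 and 7.16 in LEN. It read 7.33, 6.64 and 7.05 RPKM in AI-10-104 and 6.95, 6.50 and 6.38 in LEN + AI-10-104. The LEN samples exceeded all DMSO and all LEN + AI-10-104 samples, and the other ranges overlapped. No CD44 comparison passed, with log2 differences from −0.14 for the combination against LEN (95% confidence interval −0.24 to −0.03, limma adjusted p = 0.133) to 0.13 for LEN against DMSO (0.02 to 0.23, limma adjusted p = 0.326).

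**Figure D3:**
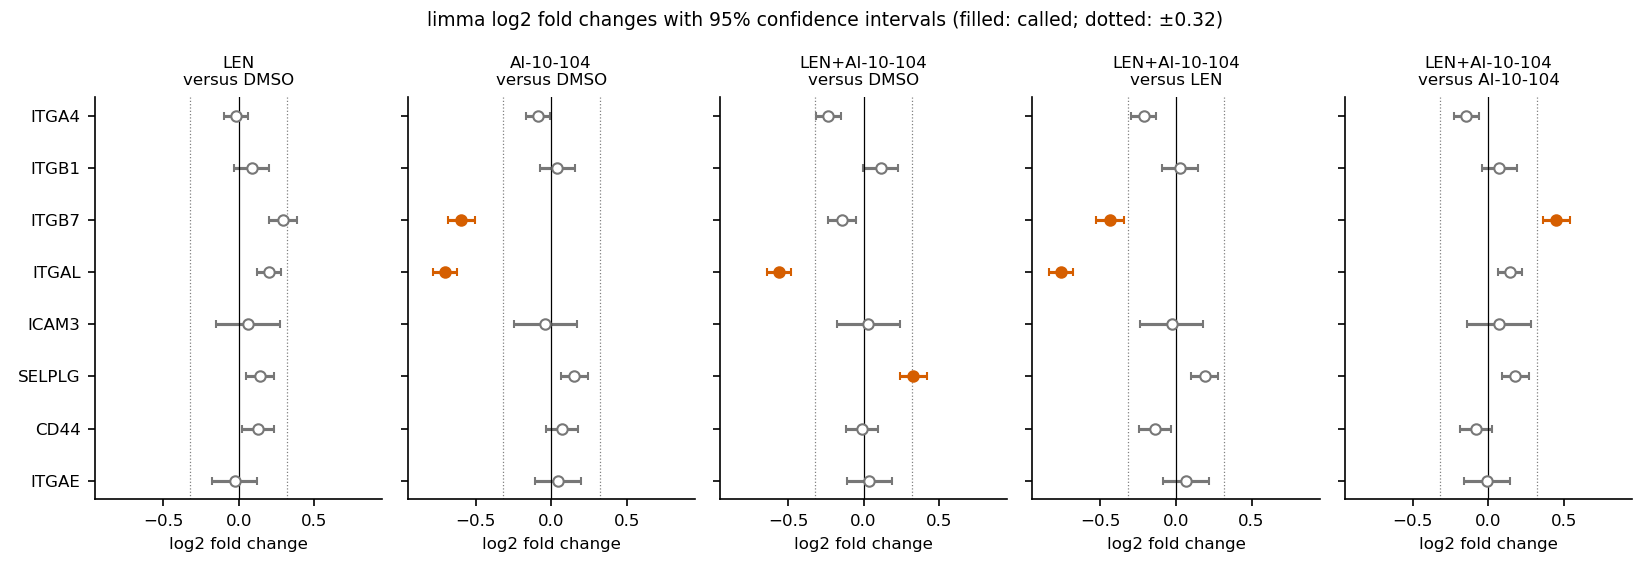
log2 fold changes from limma (horizontal axes) with 95% confidence intervals for the 8 genes tested (rows) in the 5 pairwise comparisons (panels), where filled points were called and dotted lines mark ±0.32. ITGB7 and ITGAL lay at −0.59 and −0.70 with AI-10-104 against DMSO, and the only filled points above 0 were SELPLG at 0.33 (combination against DMSO) and ITGB7 at 0.45 (combination against AI-10-104).

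The wider integrin family had 26 genes in the table, of which 10 were tested and 16 had a mean under 0.5 RPKM. ITGB7 alone made up 77.5% ± 0.369 of the summed integrin RPKM under DMSO, 79.2% ± 0.401 under LEN, 75.8% ± 1.17 under AI-10-104, and 79.7% ± 0.282 with both drugs (mean ± SD, n = 3). The summed level itself was 982 ± 36.9 RPKM under DMSO, 1178 ± 13.3 under LEN, 666 ± 26.5 under AI-10-104, and 865 ± 3.47 with both drugs. Among the other integrins, ITGB5 was the only gene called. ITGB5, a β subunit that pairs with αV to bind vitronectin, read 59.6 to 64.2 RPKM under DMSO, 70.8 to 74.8 under LEN, 34.9 to 37.3 under AI-10-104, and 45.5 to 49.3 with both drugs, the same order of conditions as ITGB7.

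AI-10-104 lowered ITGB5 by 42.1% (log2 −0.79 ± 0.04 SE, limma adjusted p = 7.45e-07), and LEN raised it 1.33-fold on top of AI-10-104 (0.41 ± 0.04, limma adjusted p = 0.000346). Against DMSO and against LEN, the combination lowered ITGB5 by 23.2% and 34.2% (limma adjusted p = 0.000257 and 7.82e-06). Over the 12 samples, ITGB5 correlated with ITGB7 (Pearson r = 0.98) and with ITGAL (r = 0.96), and ITGB7 with ITGAL at r = 0.91. These points fall into 4 conditions, and each point takes both of its values from the same library, so r describes the samples only. ITGAV, the usual partner of ITGB5, had a mean of 3.37 RPKM in DMSO and was not called.

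**Figure D4:**
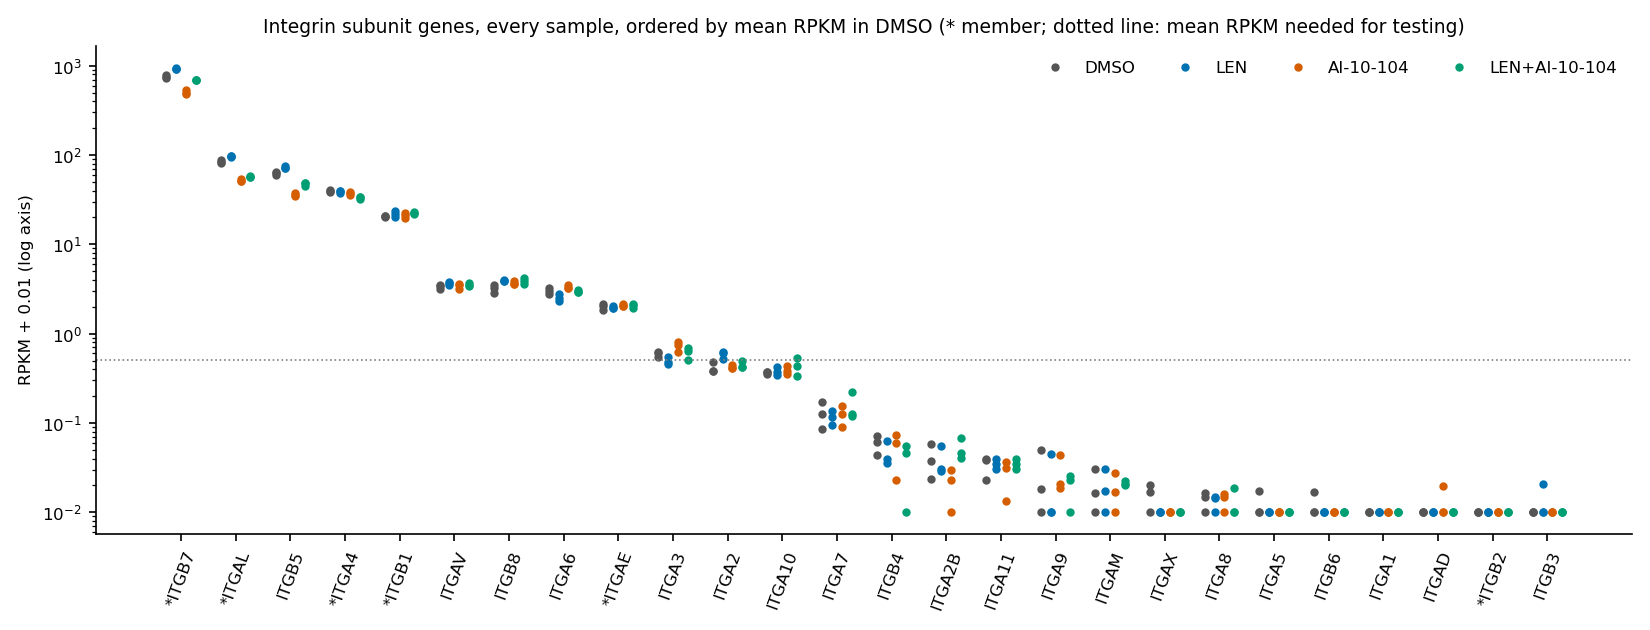
RPKM + 0.01 on a log axis (vertical) for the 26 integrin subunit genes (horizontal axis, ordered by mean RPKM in DMSO) in every sample of the 4 conditions, with the 6 integrins among the 10 genes starred and the filter of 0.5 RPKM dotted. ITGB7 lies between 482 and 951 RPKM, ITGAL, ITGB5, ITGA4 and ITGB1 lie between 19.9 and 98.6 RPKM, and ITGB2 lies at 0 in every sample.

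Other genes of the adhesion pathways were read from lists of integrin subunits, ligands and counter-receptors, selectins and enzymes that modify PSGL-1, integrin activators and adaptors, and CD44 partners and tetraspanins. Of these 102 genes, 60 were tested. With AI-10-104 against DMSO, 3 of the 60 were higher (ALCAM, HMMR and PECAM1) and 2 lower (FERMT2 and ITGB5), beside 0.685% and 1.09% of all genes tested. LEN against DMSO gave 1 higher (TPST2) and 0 lower, beside 0.587% and 0.0623%. The combination against DMSO gave 2 higher (PECAM1 and TPST2) and 1 lower (ITGB5), beside 2.3% and 0.641%. Against LEN the combination had 0 higher and 1 lower (ITGB5), beside 0.872% and 0.81%. Against AI-10-104 it had 4 higher (CD63, DOK1, FERMT2 and ITGB5) and 0 lower, beside 3.16% and 0.471%. With counts this small, no list is read as standing apart from all genes. The median log2 fold change of the 60 genes lay between 0.01 and 0.08 in these 5 comparisons.

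Among ligands and counter-receptors, 9 of 20 genes were tested, and several ligands of the expressed integrins were at or near 0. VCAM1, the α4β1 ligand, had at most 2 reads in a sample, and MADCAM1 and CDH1, the ligands of α4β7 and αEβ7, were listed at 0 reads in all 12 samples. ICAM2, another LFA-1 ligand, had a mean of 6.57 RPKM over the 12 samples and was not called. ALCAM, which binds CD6, rose 1.27-fold with AI-10-104 (log2 0.35 ± 0.09 SE, limma adjusted p = 0.0473). Its adjusted p was 0.0780 to 0.183 when any single DMSO replicate, or AI-10-104 replicate 1 or 3, was left out. The ALCAM call was also lost with a pseudocount of 1 (log2 0.258), with every gene above 0 tested (adjusted p = 0.111) and with only the compared conditions fitted (adjusted p = 0.117), all in limma. PECAM1, an adhesion receptor of endothelial and blood cells, rose 1.37-fold with AI-10-104 and 1.43-fold with the combination against DMSO (limma adjusted p = 0.0264 and 0.00932), from 0.942 RPKM in DMSO. Leaving out any DMSO replicate, or AI-10-104 replicate 1 or 3, ended the PECAM1 call for AI-10-104 (adjusted p from 0.0632 to 0.115), as did testing every gene above 0 (0.0655) or fitting only the compared conditions (0.0907). With a pseudocount of 1 both PECAM1 calls were lost, at log2 0.265 for AI-10-104 and 0.300 for the combination, where the values with a pseudocount of 0.1 were 0.46 and 0.52.

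Among selectins and PSGL-1 modification, 11 of 14 genes were tested and TPST2, a tyrosine sulfotransferase that can act on PSGL-1, was called. TPST2 rose 1.26-fold with LEN and 1.26-fold with the combination against DMSO (log2 0.33 ± 0.06 SE in both, limma adjusted p = 0.0275 and 0.00773). The LEN call for TPST2 was lost without DMSO replicate 2 or 3 or without any LEN replicate (adjusted p from 0.0555 to 0.114), with every gene above 0 tested (0.0612), with only the compared conditions fitted (0.0874) and with a pseudocount of 1 (log2 0.272). The combination call was lost without DMSO replicate 3 (log2 0.273), without LEN + AI-10-104 replicate 1 (0.317), with a pseudocount of 1 (0.273) and after median-ratio rescaling (0.300).

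Among activators and adaptors, 26 of 30 genes were tested, and FERMT2, a kindlin that helps activate integrins, was the only one called lower with AI-10-104. FERMT3, another kindlin, was far more abundant, with a mean over all samples of 39.5 RPKM against 0.804 RPKM for FERMT2. FERMT3 was called in no comparison. FERMT2 averaged 0.842 RPKM in DMSO and 0.539 RPKM in AI-10-104, a decrease of 32.1% (log2 −0.56 ± 0.12 SE, limma adjusted p = 0.0215), and it rose 1.51-fold when LEN was added to AI-10-104 (limma adjusted p = 0.00996). The decrease lost its call without DMSO replicate 2 or 3 or AI-10-104 replicate 1 or 3 (adjusted p from 0.0637 to 0.0901), with every gene above 0 tested (0.0523), with only the compared conditions fitted (0.0907) and with a pseudocount of 1 (log2 −0.259). The FERMT2 rise was lost with only the compared conditions fitted (adjusted p = 0.0525, limma) and with a pseudocount of 1, where its log2 value went from 0.60 to 0.279. DOK1, an adaptor that competes for integrin β tails, rose 1.25-fold with LEN on top of AI-10-104 (limma adjusted p = 0.0243), a call lost without AI-10-104 replicate 1 or 3 or LEN + AI-10-104 replicate 1 or 2 (adjusted p from 0.0661 to 0.0946), with every gene above 0 tested (0.0564), with only the compared conditions fitted (0.0562), with a pseudocount of 1 (log2 0.242) and after median-ratio rescaling (0.302). Among CD44 partners and tetraspanins, 9 of 18 genes were tested. HMMR, a second hyaluronan receptor, rose 1.31-fold with AI-10-104 (limma adjusted p = 0.00569), and the tetraspanin CD63 rose 1.28-fold with LEN on top of AI-10-104 (limma adjusted p = 0.00402).

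RUNX1 averaged 7.99 RPKM in DMSO and 6.28 RPKM in AI-10-104, and fell by 21.3% (log2 −0.35 ± 0.06 SE, limma adjusted p = 0.00873). The RUNX1 difference was −0.310 without AI-10-104 replicate 3 and −0.307 with a pseudocount of 1, both under the fold threshold. RUNX2 (15.4 RPKM in DMSO), RUNX3 (18.7 RPKM) and CBFB (85.4 RPKM) were called in none of the comparisons. AI-10-104 acts on the RUNX and CBFβ proteins, so these transcript levels do not check its action.

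By their profiles over the 12 samples, the tested genes most like ITGB7 were ABHD12 (r = 0.989), SLC22A23 (r = 0.988) and SDC2 (r = 0.983). SDC2, a heparan sulfate proteoglycan of the cell surface, averaged 23.6 RPKM under DMSO, 32.8 under LEN, 11.5 under AI-10-104, and 18.5 with both drugs. Most like ITGAL were GALM (r = 0.993), BMF (r = 0.991) and NUAK1 (r = 0.983). BMF, a pro-apoptotic BH3-only protein, averaged 3.19 RPKM under DMSO, 4.02 under LEN, 0.902 under AI-10-104, and 1.11 with both drugs. Most like SELPLG were BTN2A2 (r = 0.969), PLCG1 (r = 0.966) and CD74 (r = 0.965), of which CD74, the invariant chain of MHC class II, averaged 32.9, 56.0, 58.4 and 93.7 RPKM in the same order. These are Pearson correlations of log2 values over samples that share 4 conditions, picked as the highest of 11241, and are given as a description.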

How the data were processed

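Poly(A) RNA of OPM-1 cells was sequenced in 12 samples (4 conditions, 3 replicates each), grouped by the sample titles. Per the labels, alignment by the authors used STAR on GRCh38, and what they deposited is RPKM per gene. The labels also list FastQC, Cuffnorm and DESeq2, libraries came from a directional kit, and the strand setting of counting is not given in the sources used here. Values times gene length summed to 1000000 in each sample, and divided by their smallest step they gave whole reads for 100.0% of nonzero values (tolerance 0.05), 16352548 to 31386210 reads per sample.

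From the deposited RPKM, limma 3.58.1 (R 4.3.3) was fitted with a variance trend to log2(RPKM + 0.1) of the 11241 genes that averaged 0.5 RPKM or more, with 1 mean per condition, for 5 pairwise contrasts and the interaction, adjusted by Benjamini-Hochberg. The pseudocount understates fold changes of low genes. Alternatives were a pseudocount of 1, a stricter filter (1 RPKM) or none but a value above 0, rescaling by median ratios, only the compared conditions, a replicate block, no fold threshold, voom on the recovered reads, and each replicate left out. The code of the fit was tried on simulated data with changes larger than those of the 10 genes, which is no check on these results. Named were the 10 genes, every gene of the adhesion lists called in any contrast, RUNX1, RUNX2, RUNX3 and CBFB, and the 3 genes most like each called one. The SLX9 and FYB1 rows were matched by older symbols; genes beside ITGB2, TUBB and U2AF1 were looked up after ITGB2 was seen at 0. The genes and lists were chosen with earlier results of these data known.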

Additional observations from a re-analysis of the deposited data

Results flagged for a closer look

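CD44 drew attention because its differences with LEN were opposite in sign without and with AI-10-104. The 3 LEN samples lay 0.502 to 0.736 RPKM above the DMSO mean, whereas the 3 LEN + AI-10-104 samples differed from the AI-10-104 mean by −0.628 to −0.0531 RPKM. The difference was tested as the interaction in limma, which was −0.21 on the log2 scale (95% confidence interval −0.36 to −0.06, unadjusted p = 0.0101, adjusted p = 0.281 over 11241 genes) and did not pass. The lowest adjusted p for it under any alternative was 0.0570. None of the 10 genes was looked at for single samples far from the rest of their group, since each group held 3 samples.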

How the results depend on the processing

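The calls for ITGAL and ITGB7 held under every alternative and with each replicate left out, and so did those for ITGB5, HMMR and CD63. The median over all genes shifted by at most 0.03 (log2) under median-ratio rescaling. The count of the 10 genes called higher for LEN against DMSO was 0, with 2 when no fold threshold was used (ITGB7 and ITGAL) and 0 to 1 with a replicate left out. For LEN + AI-10-104 against DMSO the count higher was 1, with 0 after median-ratio rescaling and 0 to 1 with a replicate left out (SELPLG), and the count lower was 1, with 2 when no fold threshold was used. Without the fold threshold, LEN + AI-10-104 had 1 higher and 3 lower against LEN, and 3 higher and 1 lower against AI-10-104. The interaction count was 0, and 0 to 1 with a replicate left out (ITGB7). Differences that were never called changed sign as follows with a replicate left out (log2). CD44 ranged from −0.046 to 0.015 for the combination against DMSO. ICAM3 ranged from −0.0075 to 0.12 for LEN, −0.12 to 0.080 for AI-10-104 and −0.037 to 0.091 for the combination against DMSO, −0.048 to 0.15 for the combination against AI-10-104 and −0.11 to 0.087 for the interaction, which was −0.0084 after median-ratio rescaling. ITGAE ranged from −0.082 to 0.012, −0.0084 to 0.085 and −0.017 to 0.082 for LEN, AI-10-104 and the combination against DMSO, −0.042 to 0.036 for the combination against AI-10-104 and −0.020 to 0.073 for the interaction. ITGB1 ranged from −0.025 to 0.074 for the combination against LEN and −0.066 to 0.033 for the interaction. In all, 665 values of the 10 genes kept direction and call, 26 changed sign, 10 gained a call and 3 lost one. Of the values of the other called adhesion genes and RUNX1, 160 kept their call and 48 lost it (TPST2, ALCAM, FERMT2, PECAM1, RUNX1 and DOK1), 9 of them with a pseudocount of 1. For each of these the cause was not tested. FERMT2 had no value with the filter of 1 RPKM. With replicate numbers as a replicate block, the AI-10-104 difference of ITGB7 stayed at −0.59 with a limma adjusted p of 4.93e-05 and no call changed. Deviations from the condition mean in the 18 pairs of samples with equal numbers had a mean correlation of 0.0522 (lowest −0.0272, highest 0.155). For 36 other pairs the mean was −0.0261. Deviations sum to 0 within a condition, so the second mean follows closely from the first and adds no separate evidence. In all, 12 of 12 samples were most like their own number, a hint from the data and not from the design. The lowest depth, 16352548 reads, limits what can be said of ICAM1. ITGB2 was at 0 at every depth, and some genes that every cell uses were near 0 as well, so its 0 is given as listed.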
